A study of Mus musculus with 4 samples.

Results

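The proteasome genes described here are the mouse genes with a symbol that starts with Psma, Psmb, Psmc, Psmd or Psme and ends in a number, each represented by at least 1 probe set annotated to that symbol alone. There were 41 of them among the 12393 genes named on the array, carried by 74 probe sets. Where a gene had more than 1 probe set, the brightest on average was read. In all, 40 of the 41 gave a signal above a floor of 33.3, the 40th percentile of all signals pooled, and these stood among 9473 genes measured that way. The exception was Psma8, an alpha subunit known from the testis, with signals of 21.7, 29.0, 2.80 and 12.7, all under the floor. The immunoproteasome and activator subunits Psmb8, Psmb9, Psmb10 and Psme1 are called inducible here. Psme2 belongs with them, but its probe set is annotated to both Psme2 and Psme2b, so it is given separately.

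The samples were CD11c+ dendritic cells lacking interleukin 10 (IL10-/-), kept for 6 h in 1 of 4 ways. The cells stood in medium with nothing added (MEDIA), with SEA, with LPS, or with both agents (SEA/LPS). LPS is lipopolysaccharide from Gram-negative bacteria, a ligand of TLR4, and SEA is not expanded in the labels. Every group, the control included, lacked interleukin 10, and 1 array was made per group from cells of the same lot label. The labels give neither the tissue of origin nor the doses, and do not say whether cultures or animals were separate. With 1 array per group there is no check between replicates: the values below describe these 4 arrays, and their number limits the precision. They come from whole cell populations, in which fewer cells of a type and less RNA per cell cannot be told apart.

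The proteasome degrades proteins that carry ubiquitin. Its core particle, the 20S, is a stack of rings: outer rings of alpha subunits gate the chamber and inner rings of beta subunits hold the peptidase sites. The 19S regulatory particle caps it, with a ring of ATPases that unfold the substrate and a set of non-ATPase subunits that bind and remove ubiquitin. In cells exposed to interferon, and in antigen-presenting cells, the catalytic subunits Psmb8, Psmb9 and Psmb10 take the places of Psmb5, Psmb6 and Psmb7, and the PA28 activator of Psme1 and Psme2 can replace the 19S cap. The resulting immunoproteasome is known for supplying peptides to MHC class I.

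The arrays had been brought to a common level before deposit, with trimmed mean signals of 150.1 each. The share of probe sets above the floor was 57.3% to 61.1%, least with SEA/LPS, whose median signal was 45.0 against 51.5 to 53.2 on the other arrays. The ratio of 3' to 5' Gapdh probe sets, a gauge of RNA integrity, ran from 2.21 with MEDIA to 3.12 with SEA/LPS; its part in the results was not tested. Dendritic cell markers were present, with 9 of 9 above the floor on 3 arrays and 8 of 9 with SEA/LPS. All 5 macrophage markers were also above it on every array, at a summed signal of 6586 with LPS and 7651 to 7780 on the others. Passing the floor therefore does not tell these cell types apart. None of the 5 T cell markers named passed the floor, and 1 or 2 of 4 B cell markers did, at summed signals of 92.3 to 119. Of 4 neutrophil markers, 2 or 3 did, and their summed signal moved with the conditions, at 188 (MEDIA), 235 (SEA), 277 (LPS) and 317 (SEA/LPS); the part of such cells in the results was not tested.

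The inducible catalytic subunits were higher with LPS than with MEDIA and were not alike once SEA was added. Psmb8 (also LMP7), the inducible chymotrypsin-like subunit, gave signals of 1476 (MEDIA), 1163 (SEA), 2895 (LPS) and 732 (SEA/LPS). It was highest with LPS alone and lowest with SEA/LPS, below the control. On the log2 scale its difference was 0.97 for LPS over MEDIA (1.96-fold), -1.98 for SEA/LPS over LPS (3.96-fold lower) and -1.01 for SEA/LPS over MEDIA. The SEA/LPS over LPS value of Psmb8 was the largest in size among the 40 members in the 4 comparisons.

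Psmb9 (LMP2), which takes the place of Psmb6, read 296 (MEDIA), 242 (SEA), 521 (LPS) and 582 (SEA/LPS). Both arrays with LPS lay above both without it. The log2 difference was 0.81 for LPS over MEDIA, 0.16 for SEA/LPS over LPS and 0.97 for SEA/LPS over MEDIA. Psmb10 (MECL-1), the inducible partner of Psmb7, read 407, 321, 1316 and 882 in the same order of arrays. With LPS it was 3.23-fold above MEDIA, the largest LPS difference among the members at 1.69 on the log2 scale. With SEA/LPS it was between LPS and MEDIA, -0.58 from the former and 1.12 from the latter.

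Psme1, the alpha subunit of the PA28 activator, moved least of the inducible genes with LPS. Its signals were 506 (MEDIA), 359 (SEA), 636 (LPS) and 771 (SEA/LPS), so that SEA/LPS was highest and SEA lowest. The log2 differences were -0.49 for SEA over MEDIA, 0.33 for LPS over MEDIA and 0.61 for SEA/LPS over MEDIA; the LPS difference became -0.22 when arrays were scaled to their hybridisation controls. The probe set annotated to both Psme2, the beta subunit of PA28, and Psme2b read 631, 584, 1570 and 1851. That is 2.49-fold higher with LPS and 2.93-fold higher with SEA/LPS than with MEDIA, and the probe set cannot assign this to either gene.

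**Figure D1:**
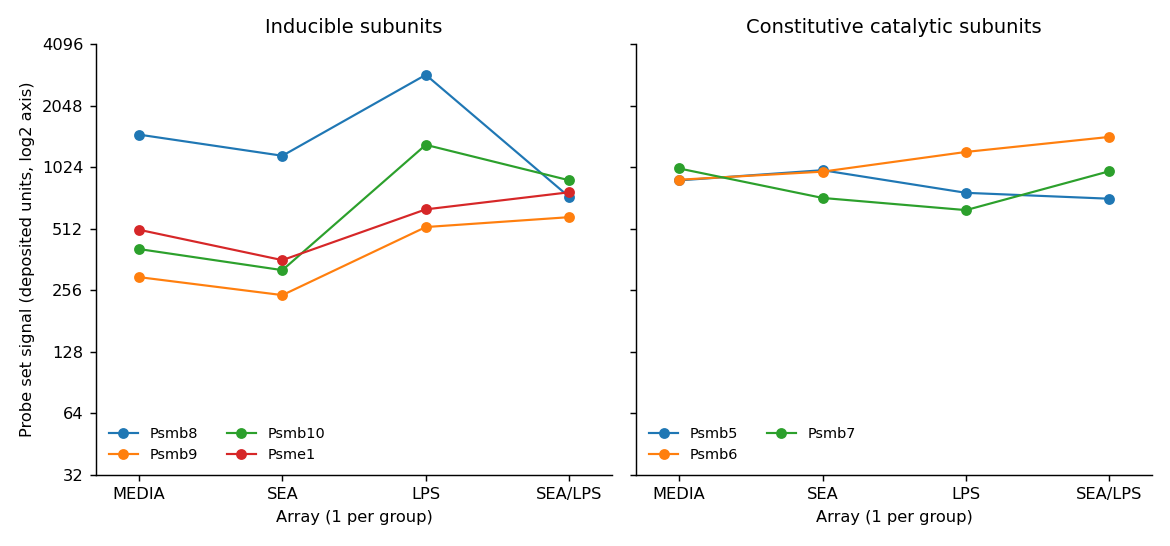
Signal of each probe set (log2 axis, deposited units) on the 4 arrays, 1 per group, for the inducible subunits (left) and the constitutive catalytic subunits they replace (right); lines only join the points of a gene. Psmb8 is at 2895 with LPS and 732 with SEA/LPS, whereas Psmb9 and Psme1 are highest with SEA/LPS.

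SEA alone gave small differences in the inducible genes, all in 1 direction. Psmb8, Psmb9, Psmb10 and Psme1 were 1.22- to 1.41-fold lower with SEA than with MEDIA, a median log2 difference of -0.34. That sign was the same under every scaling tried (-0.43 to -0.34). None reached 1.5-fold. For the 31 measured constitutive subunits of the 20S and 19S the median was 0.06, or -0.02 when scaled to hybridisation controls, and over all genes it was 0.00.

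The 150 bases before the start of 5 catalytic subunit genes are shown to set the sequence upstream of the inducible genes beside that of their constitutive partners. No sequence was at hand for Psmb7, the partner of Psmb10, so that pair cannot be compared. They are from RefSeq on GRCm38.p6, printed 5' to 3' in the direction of the gene, with motif matches in capitals. Psmb8 is at chr17:34198045-34198194 on the plus strand, Psmb9 at chr17:34187331-34187480 on the minus strand and Psmb10 at chr8:105938393-105938542 on the minus strand. Psmb5 is at chr14:54617996-54618145 on the minus strand and Psmb6 at chr11:70525207-70525356 on the plus strand.
Psmb8: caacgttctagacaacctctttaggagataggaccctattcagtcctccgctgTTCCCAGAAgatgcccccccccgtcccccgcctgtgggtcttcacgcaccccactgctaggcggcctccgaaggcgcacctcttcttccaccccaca
Psmb9: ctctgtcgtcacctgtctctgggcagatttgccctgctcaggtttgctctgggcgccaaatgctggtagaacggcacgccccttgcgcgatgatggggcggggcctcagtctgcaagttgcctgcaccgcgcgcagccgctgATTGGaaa
Psmb10: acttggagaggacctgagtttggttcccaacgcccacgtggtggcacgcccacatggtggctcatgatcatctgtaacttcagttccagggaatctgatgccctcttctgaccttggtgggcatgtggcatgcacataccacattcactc
Psmb5: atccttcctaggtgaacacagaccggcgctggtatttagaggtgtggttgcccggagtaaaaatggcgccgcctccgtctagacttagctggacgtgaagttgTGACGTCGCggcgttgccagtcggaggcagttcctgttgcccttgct
Psmb6: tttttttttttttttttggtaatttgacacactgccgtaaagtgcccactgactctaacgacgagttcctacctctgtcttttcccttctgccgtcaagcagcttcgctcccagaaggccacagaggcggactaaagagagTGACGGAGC

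The motifs searched on both strands, with overlaps allowed, were an interferon response core (GAAANNGAA), the STAT site GAS (TTCNNNGAA), an antioxidant response element (TGACNNNGC), the CCAAT box and the NF-kappaB site by its usual consensus. Windows ran from 250 bases before to 50 after the start. In Psmb8 the capitals mark a GAS match starting 97 bases before the start. The match in Psmb9 is a CCAAT box on the reverse strand, 8 bases before it. Psmb5 and Psmb6 each hold an antioxidant response element match, 47 and 9 bases before the start, and Psmb10 held none of the motifs. Such short motifs are common: among all 32851 windows, 8.56% held the interferon response core, 8.30% GAS, 12.4% the antioxidant response element, 37.4% CCAAT and 8.46% the NF-kappaB site. Among 36 windows of 34 proteasome genes, Psmb7 not among them, the counts were 6, 2, 6, 13 and 6. A match describes the letters only, and no binding was measured.

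As deposited, the constitutive catalytic subunits differed less from MEDIA with LPS than their inducible partners. Scaled to hybridisation controls, Psmb5 was at -0.75 against 0.42 for Psmb8, Psmb7 at -1.23 against 1.14 for Psmb10, and Psmb6 at -0.10 against 0.26 for Psmb9, so the sizes depend on the scaling while each inducible subunit stays above its partner. Psmb5, the chymotrypsin-like subunit of the standard core, read 881 (MEDIA), 989 (SEA), 766 (LPS) and 717 (SEA/LPS), all within 1.5-fold of MEDIA. Psmb6, the caspase-like subunit, read 888, 972, 1214 and 1438 in the same order, and was 1.62-fold higher with SEA/LPS than with MEDIA. Psmb7, the trypsin-like subunit, read 1008, 723, 631 and 978. It was lower with SEA and with LPS than with MEDIA, and near MEDIA with SEA/LPS.

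Set against each other as differences of log2 differences, Psmb10 over Psmb7 was 2.37 higher with LPS (5.17-fold) and 1.16 higher with SEA/LPS than with MEDIA. Psmb8 over Psmb5 was 1.17 higher with LPS but -0.71 with SEA/LPS, a change of -1.89 from LPS. For Psmb9 over Psmb6 the values were 0.36 and 0.28, so this pair moved nearly together. With SEA alone the 3 pairs gave -0.51 (Psmb8), -0.42 (Psmb9) and 0.14 (Psmb10). Such differences do not depend on the scaling of whole arrays by a constant.

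In the median, the inducible subunits lay above the constitutive ones with LPS. The median log2 difference for LPS over MEDIA was 0.89 for the 4 inducible and 0.07 for the 31 constitutive subunits, a gap of 0.83; all genes had a median of -0.06. The median of the inducible genes was above 0 under each scaling (0.34 to 1.03), while that of the constitutive genes was -0.49 when scaled to hybridisation controls, where the median of all genes was -0.57. No constitutive subunit was as high as Psmb10, and 7 of 31 were at or above Psme1. For SEA/LPS over MEDIA the gap was also 0.83 (0.79 against -0.04), with Psmb8 on the other side. The SEA/LPS over LPS medians were -0.21 and 0.22, a gap of -0.43, but the inducible genes ran from -1.98 to 0.28, and their median was 0.03 when scaled to hybridisation controls. With the probe set of Psme2 and Psme2b counted among the inducible genes, that median was 0.16 and the gap -0.06. These comparisons share arrays, so the LPS array enters both the first and the last of them with opposite signs.

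**Figure D2:**
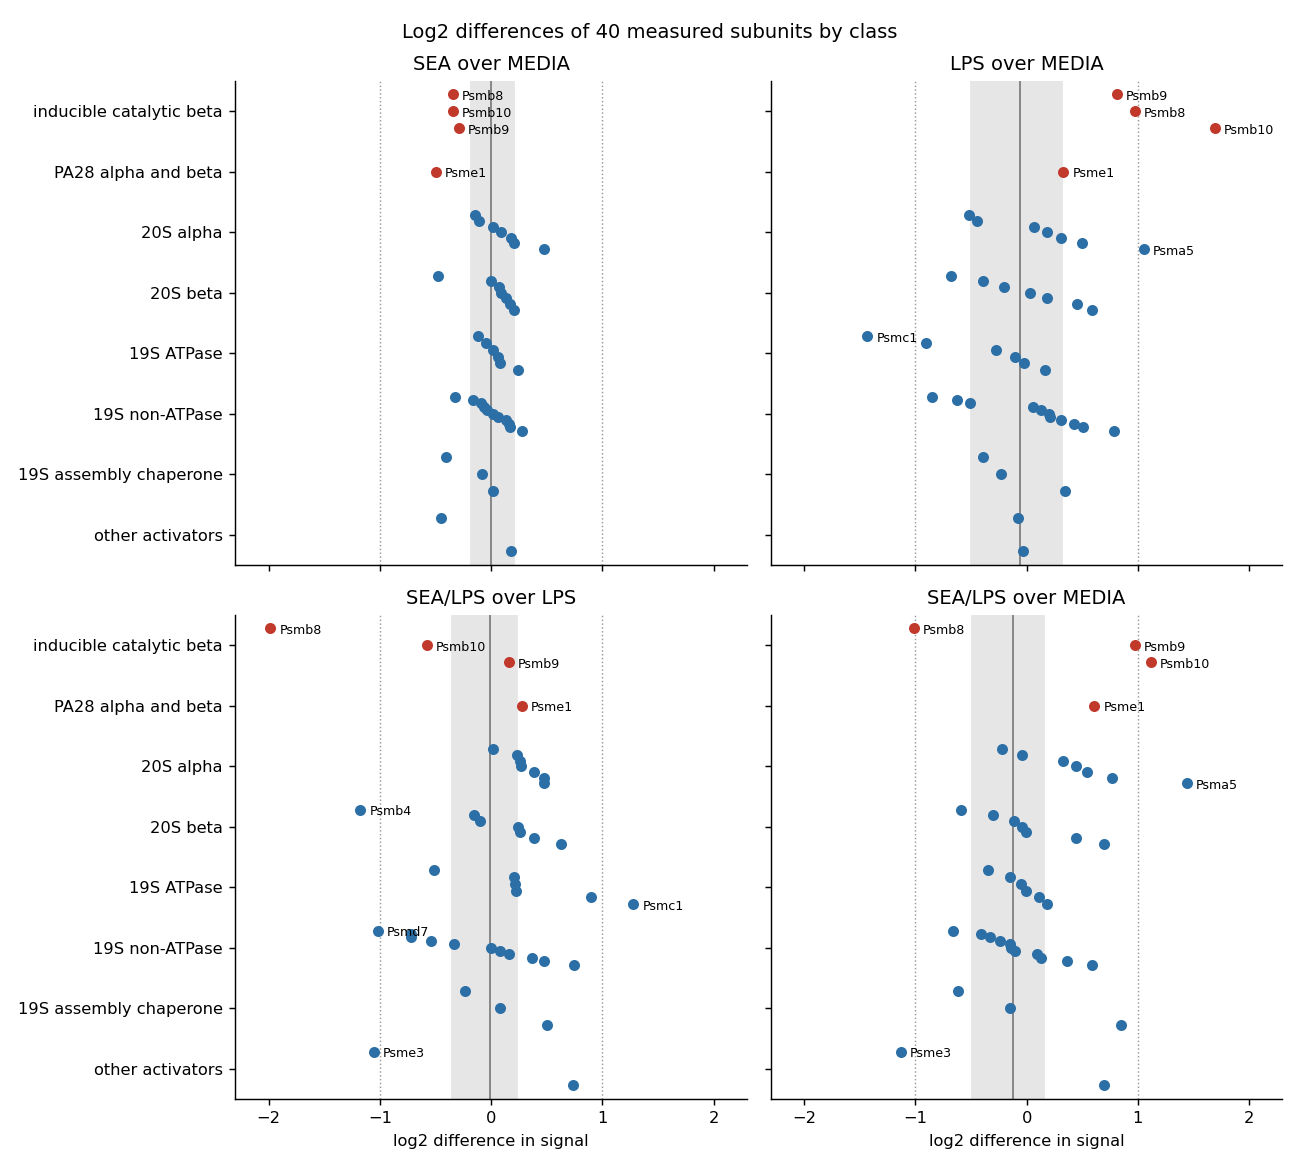
Log2 difference in signal (x axis) of the 40 measured members by class (y axis) in the 4 comparisons; red points are inducible, blue the others, the grey band is the middle 50% of all genes with its median as a line, and dotted lines mark 2-fold. The inducible catalytic subunits lie above the grey band for LPS over MEDIA, and Psmb8 is at -1.98 for SEA/LPS over LPS.

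The alpha subunits, which form the gate of the core particle, were all higher with SEA/LPS than with LPS by a little. In 7 of 7 the log2 difference was above 0, also under each other scaling, with a median of 0.27 and a range of 0.02 (Psma6) to 0.48 (Psma1). The lowest Psma6 value under any scaling was 0.004. Of all measured genes, 4046 of 9473 were above 0 as deposited. Scaled to hybridisation controls, 5464 of 9339 were, with a median of 0.12. Psma5 stood out, with signals of 547 (MEDIA), 761 (SEA), 1134 (LPS) and 1486 (SEA/LPS), lowest with MEDIA and highest with both agents. It was 2.07-fold higher with LPS and 2.72-fold higher with SEA/LPS than with MEDIA. A further Psma5 probe set gave log2 differences of 0.63 and 1.32 where the one read gave 1.05 and 1.44.

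Psma1 was lowest with LPS, at 536 (MEDIA), 607 (SEA), 373 (LPS) and 520 (SEA/LPS), a log2 difference of -0.52 for LPS over MEDIA. Psma6 changed little, at 1962 (MEDIA), 2087 (SEA), 2426 (LPS) and 2459 (SEA/LPS). The remaining alpha subunits Psma2, Psma3, Psma4 and Psma7 had LPS differences of -0.45 to 0.50, and Psma3 was 1.70-fold higher with SEA/LPS than with MEDIA.

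Among the other beta subunits, Psmb4, a structural subunit without a peptidase site, read 1524 (MEDIA), 1622 (SEA), 2289 (LPS) and 1014 (SEA/LPS). It was highest with LPS and lowest with SEA/LPS, as Psmb8 was, at 0.59 for LPS over MEDIA and -1.18 for SEA/LPS over LPS. A dimmer Psmb4 probe set gave only -0.19 for the latter. Psmb1, Psmb2 and Psmb3, also without peptidase sites, stayed within 1.5-fold in every comparison.

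Of the 6 ATPases, which unfold substrates at the base of the 19S, 5 were lower with LPS than with MEDIA and 5 were higher with SEA/LPS than with LPS. Of all 9473 measured genes, 5045 were lower in the first comparison and 4046 higher in the second. The ATPase medians were -0.19 and 0.22. When scaled to the 75th percentile the first was -0.05, with 3 of 6 above 0. Scaled to hybridisation controls it was -0.74, with 6 of 6 below 0, where the median of all genes was -0.57. Psmc1 read 134 (MEDIA), 130 (SEA), 49.6 (LPS) and 120 (SEA/LPS), so that the LPS array alone stood apart. Its log2 difference was -1.43 for LPS over MEDIA (2.70-fold lower) and 1.28 for SEA/LPS over LPS. These signals are near the floor, and with the floor at the 60th percentile, which the LPS signal does not reach, the values were bounds of -0.83 and 0.67. Psmc3 had the same order at a brighter signal, with 375, 345, 200 and 373, or -0.90 and 0.90. Psmc4 was the exception, at 313, 316, 352 and 247, lowest with SEA/LPS on the probe set read. A second Psmc4 probe set read 90.8, 179.5, 234.1 and 145, lowest with MEDIA. It was at -0.69 for SEA/LPS over LPS and 0.68 for SEA/LPS over MEDIA. Psmc2, Psmc5 and Psmc6 stayed within 1.21-fold in each of the 4 comparisons on the probe sets read. A second Psmc2 probe set read 493, 413, 264 and 375, lowest with LPS, at -0.90 for LPS over MEDIA and 0.51 for SEA/LPS over LPS.

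The 11 measured non-ATPase subunits went both ways. Psmd2, a large scaffold of the base, read 441 (MEDIA), 430 (SEA), 245 (LPS) and 411 (SEA/LPS), and Psmd1, the other large scaffold, read 463, 370, 300 and 418. Both were lowest with LPS, by -0.85 and -0.63 from MEDIA. Psmd7, a lid subunit that pairs with the deubiquitinase Psmd14, went the other way at 88.5, 83.2, 152 and 75.2, highest with LPS. Its log2 differences were 0.78 for LPS over MEDIA and -1.02 for SEA/LPS over LPS. Psmd4, a ubiquitin receptor, and Psmd8, a lid subunit, had SEA/LPS signals 1.65-fold below those with LPS. Psmd14 stayed within 1.28-fold of MEDIA, and Psmd3, Psmd6, Psmd11, Psmd12 and Psmd13 had LPS differences of -0.51 to 0.50. Further Psmd11 probe sets above the floor ran from -0.40 to 0.20 for LPS over MEDIA, where the one read gave 0.50.

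In 5 constitutive subunits, Psmb7, Psmc1, Psmc3, Psmd1 and Psmd2, the signal was at least 1.5-fold lower with LPS than with MEDIA. That is 16.1% of the 31, against the 21.0% of all measured genes that were. With SEA/LPS the same 5 genes were at -0.15 to -0.01 from MEDIA, or at -0.46 to -0.32 when scaled to hybridisation controls. They were chosen on the MEDIA and LPS arrays, which every comparison of SEA/LPS shares, so these values are a description only. The 3 constitutive subunits at least 1.5-fold higher with LPS were Psma5, Psmb4 and Psmd7, or 9.68% of the 31 against 14.1% of all measured genes. Chosen on the same arrays, these ran from -0.59 to 1.44 for SEA/LPS over MEDIA, also a description only.

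**Figure D3:**
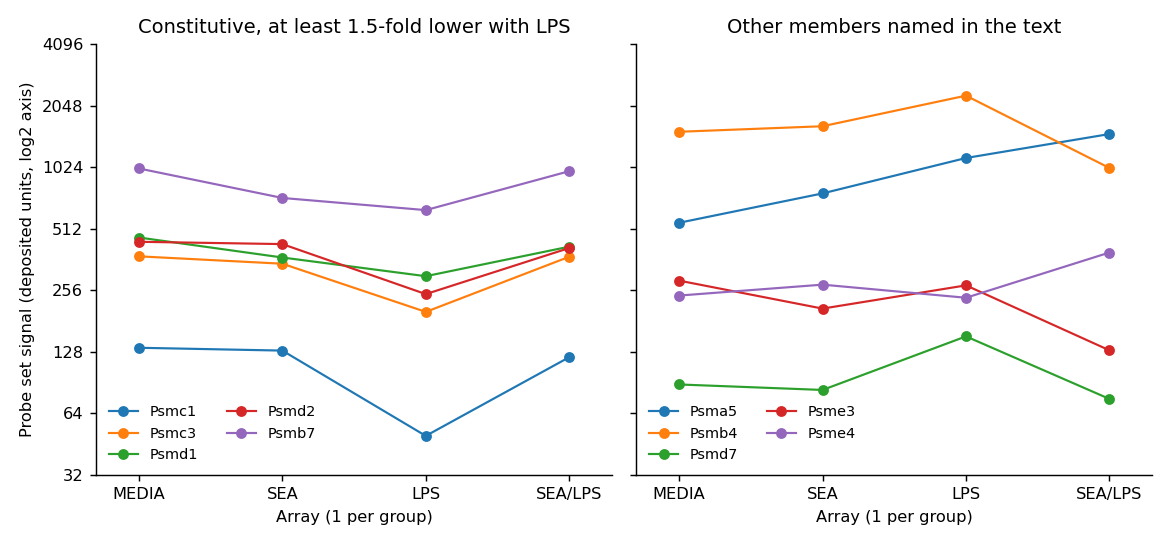
Signal (log2 axis, deposited units) on the 4 arrays, 1 per group, of the 5 constitutive subunits lower with LPS (left) and of other members with a difference described in the text (right); lines only join the points of a gene. The genes on the left were chosen for their lower LPS signal, and their SEA/LPS signals are -0.15 to -0.01 from MEDIA on the log2 scale; on the right Psma5 is at 1486 and Psme3 is lowest, at 130, with SEA/LPS.

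The 3 assembly chaperones of the 19S base gave no difference of 1.5-fold with LPS. Psmd10 (gankyrin) was 1.81-fold higher and Psmd5 1.54-fold lower with SEA/LPS than with MEDIA, and Psmd9 was within 1.33-fold on the probe set read. A second Psmd9 probe set was at -0.81 for SEA/LPS over LPS and -0.68 for SEA/LPS over MEDIA. The other activators differed from Psme1. Psme3 (PA28 gamma), a nuclear activator not tied to interferon, read 285 (MEDIA), 208 (SEA), 270 (LPS) and 130 (SEA/LPS), the last 2.19-fold below MEDIA. A further Psme3 probe set read 192, 127.7, 75.1 and 92.5: it too was lower with SEA/LPS than with MEDIA (-1.05), but it was already lowest with LPS, so the probe sets disagree on where the change lies. Psme4 (PA200), another nuclear activator, read 241, 272, 235 and 391. It was highest with SEA/LPS, at 0.73 over LPS, and all 3 of its probe sets were higher there (0.66 to 0.92).

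Counted by size, the proteasome genes as a whole are read here against all 9473 measured genes. At 2-fold, 2 of 40 were higher with LPS than with MEDIA (Psma5 and Psmb10; 6.06% of all measured genes were) and 1 lower (Psmc1; 8.43%). At 1.5-fold, 6 were higher, or 15.0% against 14.1%, and 5 lower, or 12.5% against 21.0%. SEA alone gave 0 members at 2-fold in either direction, where 0.644% of all genes were higher and 0.633% lower. At 1.5-fold SEA also gave 0, where 5.11% of genes were higher and 4.01% lower.

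For SEA/LPS over LPS, 1 of 40 was at least 2-fold higher (Psmc1; 1.39% of all genes) and 4 were lower (Psmb4, Psmb8, Psmd7 and Psme3; 10% against 3.47%). The count of members lower was 2 when scaled to the 75th percentile, with quantile normalization or with the mean over probe sets. It was 1 when scaled to the hybridisation controls. Further probe sets above the floor were at -0.19 (Psmb4), -0.51 (Psmd7) and 0.30 (Psme3), and Psmb8 has no other. At 1.5-fold, 5 were higher, or 12.5% against 7.76%, and 6 lower, or 15.0% against 13.4%. For SEA/LPS over MEDIA, 2 were at least 2-fold higher (Psma5 and Psmb10; 4.54% of all genes) and 2 lower (Psmb8 and Psme3; 7.05%). At 1.5-fold, 8 were higher, or 20% against 9.89%, and 5 lower, or 12.5% against 20.2%. The 8 higher were Psma3, Psma5, Psmb6, Psmb9, Psmb10, Psmd10, Psme1 and Psme4. Scaled to hybridisation controls, Psma5 (1.13), Psmb9 (0.66) and Psmb10 (0.81) stayed past 1.5-fold. Psma3 (0.45), Psmb6 (0.38), Psmd10 (0.54), Psme1 (0.30) and Psme4 (0.39) did not. The median of all genes was -0.43 under that scaling.

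Several members could be read on more than 1 probe set, which gauges how far a single one can be trusted. In 17 members at least 1 other probe set was above the floor, and the mean log2 difference of the others was compared with the one read. It had the same direction in 11 for LPS over MEDIA and 12 for SEA/LPS over LPS, with median gaps of 0.36 and 0.30 on the log2 scale. Of the members past 1.5-fold with another probe set, 3 of 3 and 4 of 5 kept the direction, the exception being Psme3. Psmb8, Psmb9, Psmb10 and Psme1 have 1 probe set each, so their values have no such check.

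**Figure D4:**
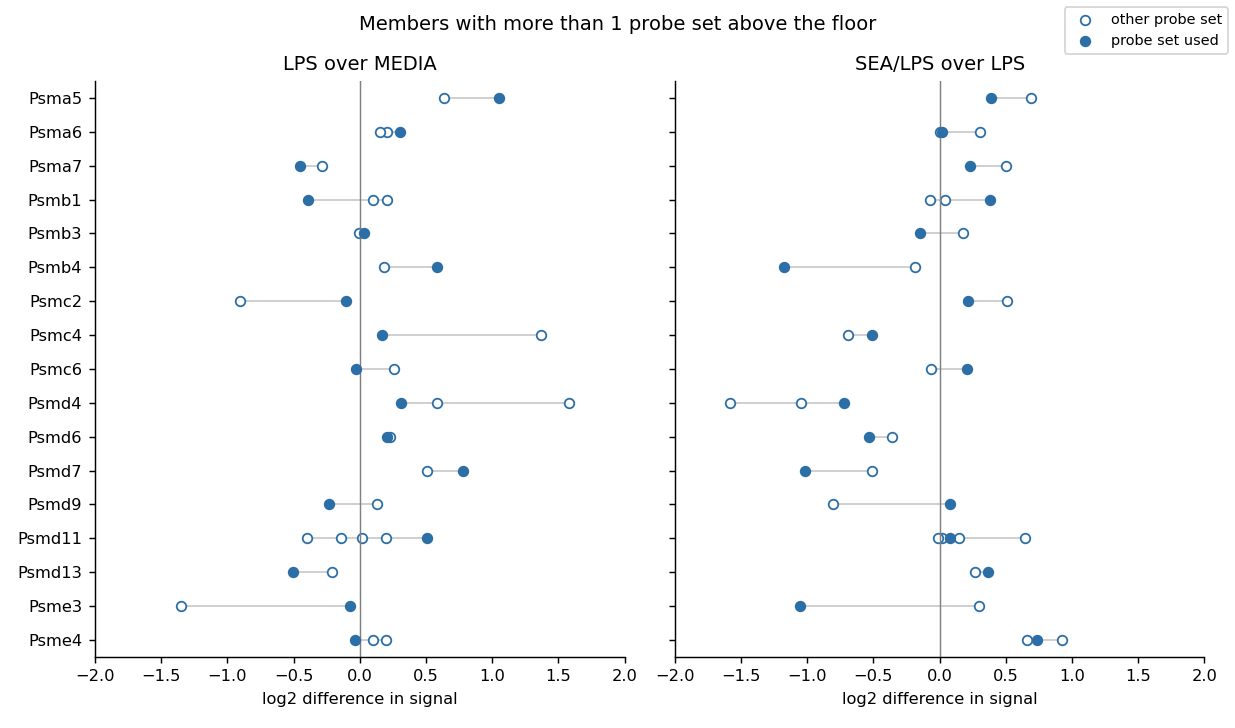
Log2 difference in signal (x axis) for each probe set above the floor of the 17 members with more than 1 (y axis), for LPS over MEDIA (left) and SEA/LPS over LPS (right); filled points are the probe sets read, open points the others. For Psme3 the points fall on opposite sides of 0 for SEA/LPS over LPS, whereas for Psme4 all 3 lie above it.

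Psmb8 and Psmb9 lie in the class II region of the MHC beside the genes of the peptide transporter, in the order Psmb9, Tap1, Psmb8, Tap2. With LPS all 4 were above MEDIA, at 0.81 for Psmb9, 2.59 for Tap1, 0.97 for Psmb8 and 1.19 for Tap2. For SEA/LPS over LPS they differed, at 0.16 (Psmb9), -0.75 (Tap1), -1.98 (Psmb8) and -0.79 (Tap2). Tap1 remained 1.84 above MEDIA with SEA/LPS, whereas Psmb8 did not. Further along, the class II chain H2-Ab1 was -1.24 and H2-Aa -0.12 for SEA/LPS over LPS.

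The wider peptide supply for class I, which carries proteasome products to the cell surface, had a median of 0.31 for LPS over MEDIA, or -0.24 when scaled to hybridisation controls. Of 11 genes, 4 were at least 2-fold higher with LPS than with MEDIA (6.06% of all measured genes were) and 0 lower (8.43%). These 4 were the transporter genes Tap1 (6.02-fold) and Tap2 (2.29-fold), and the peptide editors Tapbp (4.43-fold) and Tapbpl (3.23-fold). For SEA/LPS over LPS, 0 were higher (1.39% of all genes) and 2 lower (3.47%), Tapbp (-1.21) and the class I heavy chain H2-K1 (-1.17). With SEA/LPS, Tap1 and Tapbpl were still at least 2-fold above MEDIA, where 4.54% of all genes were. With SEA alone no gene of the list reached 1.5-fold, where 5.11% of all genes were higher and 4.01% lower.

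Among 8 measured regulators of proteasome genes, 2 were at least 2-fold higher with LPS than with MEDIA (6.06% of all genes) and 0 lower (8.43%). Their median was 0.21, or -0.34 when scaled to hybridisation controls. Irf8, an interferon regulatory factor of dendritic cells, read 490, 531, 1911 and 955, or 1.96 for LPS over MEDIA, and at least 2-fold lower with both agents than with LPS. Stat3 (1.34 for LPS over MEDIA) was at -1.16 for SEA/LPS over LPS. Vcp, which extracts proteins for degradation, was also 2-fold below its LPS signal with SEA/LPS. Of all genes, 3.47% were at least 2-fold lower in that comparison. Irf1, a known activator of Psmb9, gave 0.39 with LPS over MEDIA and -0.56 for SEA/LPS over LPS, and Nfe2l2 (NRF2) gave -0.76 and 0.83.

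The list of proteasome assembly factors and inhibitor had a median of -0.26 for LPS over MEDIA, or -0.81 when scaled to hybridisation controls. At 2-fold, 0 of 7 were higher (6.06% of all genes) and 2 lower (8.43%), the chaperones Psmg1 (-1.06) and Psmg3 (-1.10). Pomp, the maturation factor of the core, was 1.66-fold higher with SEA/LPS than with MEDIA. In the other 3 comparisons no gene of this list reached 2-fold. For SEA/LPS over MEDIA, 4.54% of all genes were higher and 7.05% lower, and the shares of the others are given below. Of 8 ubiquitin receptors, shuttles and proteasome deubiquitinases, 0 were past 2-fold with SEA, LPS or SEA/LPS over LPS. Over all genes 0.644% were higher and 0.633% lower with SEA, 6.06% and 8.43% with LPS, and 1.39% and 3.47% for SEA/LPS over LPS. Ube3c, a ubiquitin ligase of the proteasome, was -1.01 for SEA/LPS over MEDIA, where 7.05% of all genes were at least 2-fold lower. The largest LPS differences in that list were those of the deubiquitinases Uchl5 (-0.82) and Usp14 (0.57).

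The departure of SEA/LPS from the sum of the separate SEA and LPS differences, on the log2 scale, was -1.64 for Psmb8, the lowest of the 40 members, 0.45 for Psmb9, -0.23 for Psmb10 and 0.77 for Psme1. Its median was 0.11 over the 4 inducible and 0.06 over the 31 constitutive subunits, a gap of 0.05. As deposited, 2 inducible genes were above 0 and 2 below. Scaled to hybridisation controls, 3 were above and 1 below, and the medians were 0.44 and 0.38. At the other end were Psmc1 (1.32), Psmb7 (1.11) and Psmc3 (1.02). In 4 of 40 members, or 10%, the SEA differences without and with LPS had opposite signs and lay at least 2-fold apart, against 7.93% of all measured genes.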

How the data were processed

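Total RNA of 4 samples was measured on 1 mouse Affymetrix array each. The authors' deposited values are linear intensity signals for 22690 probe sets, judged from the values themselves. Software, background step and scaling rule were not given in the sources used here. A common array mean hides any difference in total RNA.

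Probe sets were named through the platform annotation: 20380 had 1 symbol, 691 several and 1555 none, besides 64 controls, and 20351 matched the gene table of GRCm38.p6. Signals under the 40th percentile (33.3) were set to it before log2 was taken, and genes above it on 1 or more arrays were kept. Python 3.11.15, numpy 2.4.6 and pandas 2.3.3 were used, and the counting was tested on simulated data. With 1 array per group no test was run: genes were counted at 2-fold, with 1.5-fold beside it. Members and gene lists were chosen with earlier results of these data known. Signals on all arrays are given for the inducible subunits, their partners, Psme3, Psme4, members past 2-fold, and the highest and lowest of each class with LPS and SEA/LPS over LPS; of other lists, genes past 2-fold or the 2 most different. Psmc3, Psmd1, Irf1, Nfe2l2, Pomp and the MHC neighbours were named after their values were seen. Alternatives were other scalings, floors, probe set choices and fold sizes. Ubiquitin genes and activating enzymes were not analysed here.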

Additional observations from a re-analysis of the deposited data

Results flagged for a closer look

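In 4 members the SEA difference had opposite signs without and with LPS and the values lay at least 2-fold apart; 7.93% of all measured genes met the same description, each value rests on 1 array per group and the difference was not tested. For Psmb4 the SEA difference with LPS minus that without was -1.27, on a log2 scale, from 0.09 over MEDIA and -1.18 over LPS. For Psmb7 it was 1.11, from -0.48 and 0.63. For Psmc1 it was 1.32, from -0.05 and 1.28, or 0.72 with the floor at the 60th percentile, and for Psmc3 1.02, from -0.12 and 0.90.

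Probe sets not used for the values above also held signals at least 2-fold over MEDIA. The probe set annotated to Psme2 and Psme2b was 1.32 higher with LPS on the log2 scale. A second probe set of Psmc4 read 90.8 with MEDIA and 234 with LPS, a log2 difference of 1.37, where the one used gave 0.17. The dimmest Psmd4 probe set was under the floor on every array but LPS, where it read 99.7, so its log2 difference of 1.58 against the floor is a lower bound. A second Psme4 probe set was 1.02 higher with SEA/LPS than with MEDIA, where the one used gave 0.70.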

How the results depend on the processing

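The medians of the inducible and constitutive subunits, their gaps and the partner differences moved by less than 1.5-fold under every alternative, though some changed sign; the counts of members at 2-fold did move. Scaled to the 75th percentile, SEA/LPS over LPS had 2 lower, and SEA/LPS over MEDIA 4 higher and 0 lower. With quantile normalization, LPS over MEDIA had 1 higher, SEA/LPS over LPS 2 lower and SEA/LPS over MEDIA 1 lower. Scaled to the hybridisation controls, LPS over MEDIA had 1 higher and 7 lower, SEA/LPS over LPS 2 higher and 1 lower, and SEA/LPS over MEDIA 1 higher. A floor at the 20th percentile gave 2 lower for LPS over MEDIA, and one at the 60th gave 0 lower for LPS over MEDIA and 0 higher for SEA/LPS over LPS. The mean over probe sets gave 1 higher for LPS over MEDIA and 2 lower for SEA/LPS over LPS. At 1.5-fold, LPS over MEDIA had 6 higher and 5 lower, SEA/LPS over LPS 5 higher, and SEA/LPS over MEDIA 8 higher and 5 lower. At 3-fold, LPS over MEDIA had 1 higher and 0 lower, SEA/LPS over LPS 0 higher and 1 lower, and SEA/LPS over MEDIA 0 higher and 0 lower. The shares of all genes at 1.5-fold stand beside the counts above. For the other settings they are not given, so those counts do not set the proteasome genes apart from other genes. Scaled to the hybridisation controls, 7414 of 9339 genes lay below 0 for LPS over MEDIA. The cause was not tested beyond what each setting changes. The log2 signal of the hybridisation controls was 0.55 higher on the LPS array than on the MEDIA array, and scaling to them put the median of all genes at -0.57 for LPS over MEDIA, -0.43 for SEA/LPS over MEDIA and 0.12 for SEA/LPS over LPS; relative to those medians the order of the members is that of the deposited values. Adding the Psme2 and Psme2b probe set, chosen after the data were seen, moved no count by over 1.5 times, but turned the inducible median for SEA/LPS over LPS from -0.21 to 0.16 and its gap to the constitutive subunits from -0.43 to -0.06. No paired analysis was possible because each group holds 1 sample, and for the same reason no sample could be left out.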
